A study of Homo sapiens with 10 samples.

Results

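The ZNF genes of chromosome 19 are protein-coding genes whose symbol begins with ZNF followed by a digit and that lie on that chromosome. Of 250 such genes in the deposited table of 20263 genes, 200 reached 1 TPM in 5 or more of the 10 libraries, and these 200 are the genes described here. TPM, the unit of the table, is a transcript level normalised for transcript length and library total, so it can be compared between genes. The choice of members rests on this measured level, which is given below as a description and not tested.

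The libraries come from PANC-1, an established human cell line grown from a carcinoma of the pancreas. Cells received 20 µM LY for 24 h (5 libraries, LY-1 to LY-5) or the vehicle DMSO (5 libraries, NC-1 to NC-5), and the series title names the drug as lycorine, a plant alkaloid. The labels give both groups the same line and name no genetic change. Whether libraries of the same group stem from separate cultures is not stated, so a p-value here reflects only the spread among these samples, which may be technical.

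Most of these genes encode proteins that pair an amino-terminal KRAB box with a long row of C2H2 zinc fingers. The fingers read DNA, often within retrotransposons, and the KRAB box binds the corepressor TRIM28, which brings in the histone methyltransferase SETDB1 and other silencing factors. The genes arose by repeated tandem duplication and sit in clusters along chromosome 19, the chromosome that holds the largest share of human KRAB zinc finger genes. Their transcripts are usually scarce.

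In the translated GENCODE coding sequences, a KRAB pattern was found in 166 of 199 members with a coding sequence (83.4%), against 39.8% of 211 tested ZNF genes on other chromosomes. The members had a median of 12 C2H2 fingers and at most 31, in ZNF91, against a median of 9 elsewhere. Their transcripts had a median length of 3444 bases and a GC content of 42.5%, against 3502 bases and 46.1% for ZNF genes elsewhere.

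The upstream sequences of 4 members are shown because the first 3 are close relatives from the same cluster whose levels are described below, and the last belongs to the gene with the largest increase. Each is the 250 bases before the RefSeq start (GRCh38.p14), written 5′ to 3′ along the gene's strand. Capitals mark TCCAATCAG, CCGGAAG (the core that ETS factors bind) and GGGCGG (a GC box), each searched on both strands. TCCAATCAG holds a CCAAT box within it, and it was picked after these sequences had been seen. The stretches lie at chr19:23395472-23395721 (minus strand), chr19:19900696-19900945 (plus strand), chr19:20565782-20566031 (minus strand) and chr19:52139939-52140188 (minus strand).
ZNF91: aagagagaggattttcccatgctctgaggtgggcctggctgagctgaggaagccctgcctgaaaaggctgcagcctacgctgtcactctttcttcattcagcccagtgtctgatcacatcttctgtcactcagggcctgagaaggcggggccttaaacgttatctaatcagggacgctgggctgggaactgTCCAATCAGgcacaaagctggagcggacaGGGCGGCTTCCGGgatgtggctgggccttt
ZNF93: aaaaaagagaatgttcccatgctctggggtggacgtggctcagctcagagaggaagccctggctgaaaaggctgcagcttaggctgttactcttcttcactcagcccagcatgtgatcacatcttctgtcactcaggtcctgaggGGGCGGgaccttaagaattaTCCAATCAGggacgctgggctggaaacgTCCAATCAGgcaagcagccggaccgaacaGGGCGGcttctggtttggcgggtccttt
ZNF737: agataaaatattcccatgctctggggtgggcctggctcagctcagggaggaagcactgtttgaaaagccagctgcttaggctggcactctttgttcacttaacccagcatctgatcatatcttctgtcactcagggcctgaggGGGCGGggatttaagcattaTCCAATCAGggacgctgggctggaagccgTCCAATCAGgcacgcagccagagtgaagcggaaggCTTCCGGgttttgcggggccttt
ZNF616: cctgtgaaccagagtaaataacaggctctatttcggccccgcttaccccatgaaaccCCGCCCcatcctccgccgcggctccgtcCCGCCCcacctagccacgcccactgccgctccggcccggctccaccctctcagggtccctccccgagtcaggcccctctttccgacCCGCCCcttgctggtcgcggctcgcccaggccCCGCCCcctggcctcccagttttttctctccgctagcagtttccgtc

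Over these 250 bases ZNF91 was 82.8% identical to ZNF93 and 79.2% to ZNF737, and ZNF93 was 83.2% identical to ZNF737. ZNF616 was 44.0% to 46.4% identical to the other 3. TCCAATCAG stood in 36 of 223 promoter windows of members (16.1%; 300 bases, 250 before to 50 after the start) and in 0.849% of all 35116 windows. All 36 belonged to 3 clusters: ZNF101 to ZNF254 (19 of 20 windows), ZNF653 to ZNF791 (14 of 20) and ZNF554 to ZNF77 (3 of 5). CCGGAAG was in 41.3% of members' windows against 10.3% of all windows, and GGGCGG in 62.3% against 45.0%. Of the 36 members with TCCAATCAG 15 were called higher in LY (41.7%, near the 39.8% of all tested genes), with a median log2 fold change of 0.26. Of the 143 with a window but without it 81 were called higher (56.6%), with a median of 0.50. Most of those 143 lie in other clusters. Within ZNF653 to ZNF791 the median was 0.34 for 14 members with the element and 0.37 for 4 without it, and neither difference was tested. With and without CCGGAAG the medians were 0.45 (88 members) and 0.41 (91 members). A match of letters is a description and does not show that a factor binds there.

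More of the chromosome 19 ZNF genes were higher in LY than lower: 110 of 200 rose (55.0%), 13 fell (6.5%) and 77 did not pass. Over all 11663 tested genes, 64.6% passed in either direction, 39.8% higher and 24.9% lower, by limma at an adjusted p under 0.05. With 61.5% of members called, the share that changed at all was near that background, and the departure was in the direction of the calls. The members' median log2 fold change (LY over DMSO, on the log2(TPM + 1) scale) was 0.43, from 0.051 at the first quartile to 0.83 at the third, against a median of 0.17 over all tested genes. In 75 members every LY library lay above every DMSO library, and in 7 every LY library lay below. Over all tested genes these shares were 32.7% and 16.7%, and 49.4% in either direction. Increases of at least 2-fold on the log2(TPM + 1) scale were called in 34 of the 200 members, and in 12.4% of all tested genes. Decreases of that size were called in 4 of the 200 members, and in 9.76% of all tested genes. That scale makes fold changes of scarce genes smaller, and most members are scarce. Some called changes of 2-fold in TPM are thus not counted, such as those of ZNF30 (5.53 to 2.68 TPM) and ZNF841 (4.22 to 9.40 TPM). Of those 4 decreases 3 belong to members that reached 1 TPM in no LY library (ZNF737, ZNF792 and ZNF575) and so had to be lower. Over the 197 members at 1 TPM in at least 1 library of each group, 110 were higher and 10 lower. Of these 197, 4 had every LY library below, and 1 had a decrease of at least 2-fold on the log2(TPM + 1) scale.

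The split moved with scaling, as did that of all genes. It was 120 higher and 9 lower with quantile normalization, 89 and 20 with median-ratio scaling, 90 and 20 with the mitochondrially encoded genes removed, and 72 and 28 with upper-quartile scaling. Over all tested genes these scalings gave 4055 and 3694, 3853 and 3863, 3871 and 3812, and 3346 and 4371. These scalings put the median of all genes between -0.080 and 0.051. Relative to it the members' median was 0.27 as deposited and 0.28 to 0.43 under these scalings, always on the higher side. Higher in all 6 scalings tried were 72 of the 110 members, and lower in all 6 were 8 of the 13. Those 8 include ZNF737, ZNF792 and ZNF575, which had to be lower. The values as deposited count among the 6, and so does median-ratio scaling with NC-2 left out. Control library NC-2 stood apart, with 37.5% of its TPM from mitochondrially encoded genes, against 12.2% to 14.1% in the other controls and 6.43% to 14.9% in LY. Without it 103 members were higher and 15 lower, with a median of 0.38.

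**Figure D1:**
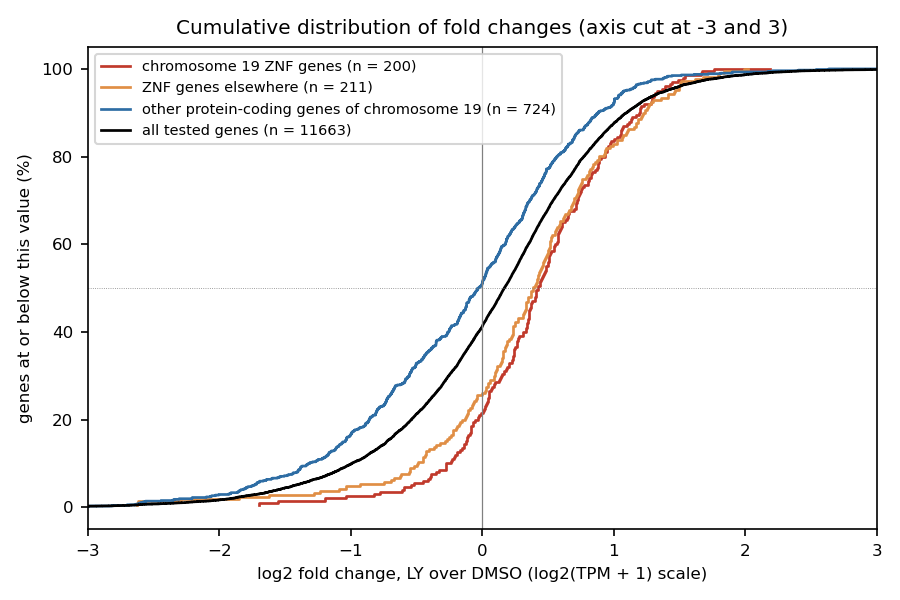
Cumulative share of genes (vertical axis, percent) at or below each log2 fold change of LY over DMSO (horizontal axis) for 200 chromosome 19 ZNF genes, 211 ZNF genes on other chromosomes, 724 other protein-coding genes of chromosome 19 and all 11663 tested genes. The curves of both ZNF groups lie close together and to the right of the curve of all genes around the middle, with medians of 0.43 and 0.40 against 0.17, and the other genes of chromosome 19 lie to the left, with a median of -0.023.

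ZNF genes on other chromosomes gave much the same picture, with 109 of 211 higher (51.7%), 22 lower (10.4%) and a median of 0.40. No test was made of the difference between both ZNF groups. The other protein-coding genes of chromosome 19 were placed differently: 204 of 724 were higher (28.2%), 243 were lower (33.6%), and their median was -0.023. Genes of like transcript length and GC content (both within the 10th to 90th percentile of the members, ZNF genes excluded) had 2122 of 4815 higher (44.1%), 1119 lower (23.2%) and a median of 0.23. Of 9 tested zinc finger genes of chromosome 19 with other names (ZFP, ZSCAN, ZKSCAN, ZIM, ZIK or ZBTB followed by a digit), 6 were higher and 0 lower by limma at an adjusted p under 0.05, and 0 were lower at an unadjusted p under 0.05 or by limma without trend.

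The shares called higher were alike with and without the KRAB pattern. The share called lower was larger without it, on few genes, and neither difference was tested. Of 166 members with it 93 were higher (56.0%) and 9 lower (5.42%), with a median of 0.45. Of 33 without it 17 were higher (51.5%) and 4 lower (12.1%), with a median of 0.41. Over all tested genes 39.8% were higher and 24.9% lower. By number of fingers, 25 of 35 members with 17 or more were higher (71.4%, median 0.61) and 31 of 59 with 13 to 16 (52.5%, 0.35). The counts were 33 of 61 with 9 to 12 fingers (54.1%, 0.44) and 21 of 44 with 8 or fewer (47.7%, 0.38). In the same order, 5.71%, 8.47%, 4.92% and 6.82% were lower. The lower counts by pattern and by fingers include 3 members that had to be lower. They are ZNF737 (KRAB pattern, 13 fingers), ZNF792 (KRAB pattern, 12 fingers) and ZNF575 (no KRAB pattern, 6 fingers). Across 199 members, fold change and number of fingers had a Spearman rho of 0.085 (Pearson r 0.13). Members are not independent, since neighbours can share sequence and all come from the same 10 libraries.

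Summed over the members, TPM was 2334, 2324, 2468, 2421 and 2304 in LY-1 to LY-5 and 1611, 1294, 1598, 1529 and 1470.0 in NC-1 to NC-5. All 5 LY sums lay above all 5 control sums, and NC-2 was the lowest. With the mitochondrially encoded genes taken out of each total, the sums ran from 2475.6 to 2743.6 in LY and from 1674.8 to 2070.6 in DMSO. In bulk RNA such a sum cannot tell fewer cells that express a gene from less RNA per cell.

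Most members were scarce. The median member had a mean of 6.27 TPM over the 10 libraries, against 23.1 TPM for the median tested gene. A mean under 2 TPM was found in 18 members, 2 to 5 in 60, 5 to 10 in 65 and 10 or more in 57, and the highest was 104.7 TPM. Just inside the limit were ZNF285 and the read-through ZNF8-ERVK3-1, whose fifth-highest library held 1.03 and 1.10 TPM. Just outside were ZNF836 and ZNF573, at 0.871 and 0.849 TPM. The 3 members without an LY library at 1 TPM passed through the DMSO libraries alone. No member passed through the LY libraries alone. Of the 50 listed genes left out, 11 were at 0 in all libraries, 4 had all LY values above all DMSO values and 1 had them below. The matching share of all genes under the limit was not counted, so these counts are only a description.

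Members of higher level had the larger increases. Among the 57 members with a mean of 10 TPM or more, 41 were higher (71.9%) and 2 lower (3.51%), with a median of 0.65. All 8361 tested genes of that level had 43.8% higher and 20.7% lower, with a median of 0.24. Among the 18 members under 2 TPM 6 were higher (33.3%) and 3 lower (16.7%), with a median of 0.21. The 709 genes of that level had 25.8% higher and 38.4% lower, with a median of -0.13. Of the 3 lower members, ZNF792 and ZNF575 had to be lower, since they passed the level limit through DMSO alone. Across the 200 members, fold change and log2 mean TPM had a Spearman rho of 0.40. That rho includes ZNF792, ZNF575 and ZNF737, whose direction was fixed by the level limit. The log2(TPM + 1) scale makes fold changes of scarce genes smaller, and the high level of a member includes its LY values.

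**Figure D2:**
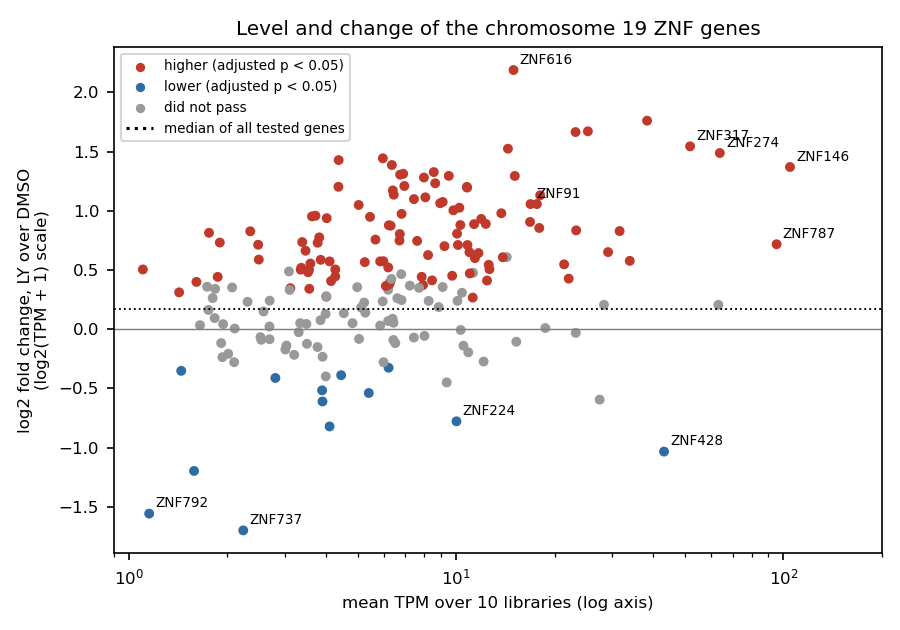
Log2 fold change of LY over DMSO (vertical axis) against the mean TPM over 10 libraries (horizontal log axis) for each of 200 chromosome 19 ZNF genes, coloured by the limma call, with the median of all tested genes as a dotted line. Of the genes called lower, ZNF428 has the highest level, and ZNF737 and ZNF792, at the lower left, had to be lower because they passed the level limit through DMSO alone.

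The largest increase was that of ZNF616 (ENSG00000204611, chromosome 19, 52113091 to 52139922), a KRAB protein with 21 fingers whose upstream sequence is shown above. Its levels were 19.01, 26.02, 30.05, 24.2 and 26.8 TPM in LY-1 to LY-5 and 5.22, 5.20, 5.08, 4.02 and 4.09 TPM in NC-1 to NC-5. Every treated library held more than 3 times the level of any control, with no overlap (log2 fold change 2.19 ± 0.13, limma adjusted p = 7.27e-08). ZNF579, which lacks a KRAB pattern, measured 59.6 ± 6.75 TPM in LY against 17.05 ± 3.20 in DMSO (SD, n = 5 per group; log2 fold change 1.76 ± 0.14). ZNF296 went from 11.6 to 38.9 TPM and ZNF585A from 10.4 to 35.9 TPM, again without overlap between the groups. ZNF585A overlaps ZNF420 on the genome and lies beside its near relative ZNF585B, which has 21.1% of its 75-base words in other genes' transcripts and also rose (log2 fold change 0.81 ± 0.11, limma adjusted p = 3.98e-05; chosen after its values were seen). With ZNF317 and ZNF274, described below, ZNF548, ZNF610, ZNF583 and ZNF347 complete the 10 largest increases, and these last 4 had log2 fold changes between 1.39 and 1.52. ZNF583 was the least even of them: it held 3.78, 9.50, 10.5, 5.27 and 5.70 TPM in LY-1 to LY-5 and 1.83, 1.92, 1.64, 1.80 and 1.82 TPM in NC-1 to NC-5.

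Among the abundant members, ZNF146 had the highest level. It encodes a protein made almost wholly of zinc fingers, known to be overexpressed in pancreatic carcinoma. Its levels were 152, 138, 175, 159 and 134 TPM in LY-1 to LY-5 and 54.9, 66.3, 57.2, 56.8 and 54.4 TPM in NC-1 to NC-5. The groups did not overlap (log2 fold change 1.37 ± 0.10, limma adjusted p = 3.03e-07), and ZNF146 overlaps ZNF565 on the genome. ZNF274 (ENSG00000171606, chromosome 19, 58183029 to 58213562) recruits SETDB1 to the ends of other zinc finger genes. It held 86.9, 96.5, 102, 91.9 and 94.9 TPM in LY-1 to LY-5 and 35.8, 26.5, 34.9, 38.7 and 30.6 TPM in NC-1 to NC-5. Its rise was close to that of ZNF146, and the LY libraries again lay far above the controls (log2 fold change 1.49 ± 0.11, limma adjusted p = 3.17e-07). ZNF317 rose from 26.01 to 77.7 TPM (log2 fold change 1.54 ± 0.09), with the smallest standard error among the members named. ZNF787 held 95.2, 124, 107, 125 and 138 TPM in LY-1 to LY-5 and 78.96, 43.4, 78.6, 83.3 and 78.9 TPM in NC-1 to NC-5. Here NC-2 alone lay far below the other controls, and without it the log2 fold change was 0.54 in place of 0.72, still past the threshold. ZNF580 did not pass, with 68.3 ± 15.2 TPM in LY against 58.2 ± 6.59 in DMSO and overlapping groups (limma adjusted p = 0.266), but it did without LY-3 (log2 fold change 0.33 in place of 0.21, limma adjusted p = 0.0396).

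Decreases were fewer. ZNF737 (ENSG00000237440, chromosome 19, 20535825 to 20565809) held 0.610, 0.815, 0.522, 0.340 and 0.345 TPM in LY-1 to LY-5 and 3.09, 4.26, 4.31, 3.90 and 4.17 TPM in NC-1 to NC-5. ZNF792 held 0.127, 0.0401, 0.0518, 0.119 and 0.0858 TPM in LY-1 to LY-5 and 2.27, 2.10, 3.08, 1.72 and 1.95 TPM in NC-1 to NC-5. Both were under 1 TPM in every LY library and above 1 TPM in every control. ZNF575, which overlaps ETHE1, measured 0.542 TPM in LY against 2.62 in DMSO. For these 3 the direction follows from how members were chosen, so their log2 differences of -1.70, -1.56 and -1.20 are given as a description with no test. ZNF30 fell from 5.53 to 2.68 TPM. ZNF224, a KRAB repressor known to act on the aldolase A gene and to bind WT1, held 7.07, 6.96, 6.77, 7.999 and 6.48 TPM in LY-1 to LY-5 and 13.4, 9.06, 16.2, 12.9 and 13.4 TPM in NC-1 to NC-5. All 5 LY libraries were lower than the lowest control, which was NC-2 (log2 fold change -0.78 ± 0.13, limma adjusted p = 0.0003). ZNF404 and ZNF66 fell less, by 0.41 and 0.39 on the log2 scale, and both missed the threshold with quantile normalization (limma adjusted p = 0.115 and 0.0603). These 7 were the only members to meet the rule for the 10 largest decreases, which asks for no overlap between groups and a mean of at least 2 TPM in the higher group.

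ZNF428, chosen after its values were seen, was the most abundant member that fell. It held 20.1, 23.8, 30.00, 29.6 and 32.8 TPM in LY-1 to LY-5 and 67.3, 27.4, 69.98, 66.9 and 63.7 TPM in NC-1 to NC-5. NC-2 lay within the LY range and the other 4 controls were all at least 63.7 TPM, and the log2 fold change was -1.03 with NC-2 and -1.29 without it. ZNF428 overlaps SRRM5, and its protein has a single finger pattern. The remaining decreases, named here after their values were seen, were of modest size. ZNF846 fell from 4.89 to 2.92 TPM, ZNF497 from 4.75 to 3.04, ZNF180 from 6.64 to 4.17 and ZNF233 from 1.73 to 1.16 TPM. For each of them the groups overlapped. ZNF846 was lower in all 6 scalings. ZNF497, ZNF180 and ZNF233 (limma adjusted p = 0.035, 0.0285 and 0.0282) were not. ZNF780A measured 5.37 TPM in LY against 7.07 in DMSO and passed narrowly (log2 fold change -0.33 ± 0.13, limma adjusted p = 0.0482). It was lower in all 6 scalings, but it missed the threshold when any single library other than NC-2 was left out (limma adjusted p from 0.0523 to 0.12). Its neighbour ZNF780B had a log2 fold change of 0.37 and did not pass (limma adjusted p = 0.0805), though it did with quantile normalization (0.035) and without NC-1 (0.0298).

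**Figure D3:**
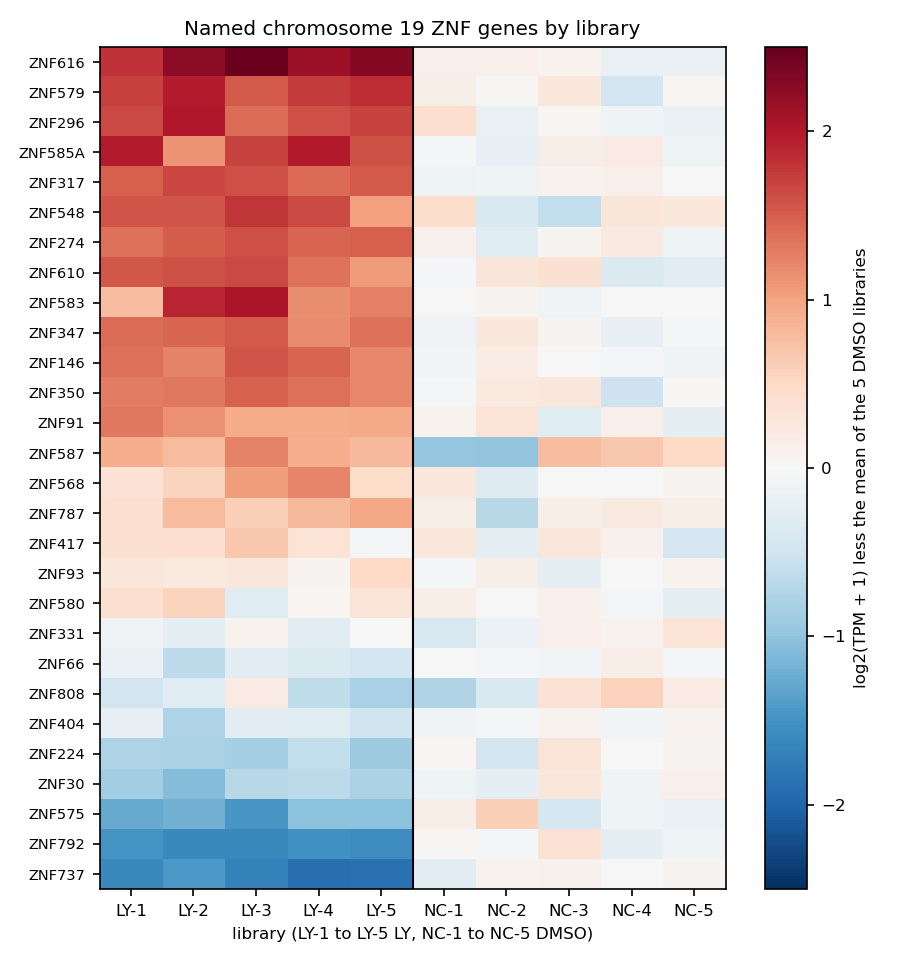
Level of each named chromosome 19 ZNF gene that was tested (rows, sorted by fold change) in the 10 libraries (columns, LY-1 to LY-5 and NC-1 to NC-5), as log2(TPM + 1) less the mean of the 5 DMSO libraries. The top rows, from ZNF616 to ZNF91, are red in all 5 LY libraries, the bottom rows are blue, and ZNF587 is low in NC-1 and NC-2 among the controls.

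Members with a known role were followed whatever their values. ZNF91, which silences SVA retrotransposons, held 27.8, 24.4, 20.95, 20.97 and 21.3 TPM in LY-1 to LY-5 and 11.3, 13.5, 8.32, 11.5 and 8.70 TPM in NC-1 to NC-5. The groups did not overlap (log2 fold change 1.06 ± 0.14, limma adjusted p = 3.7e-05). ZNF93, which silences LINE-1 elements, measured 4.49 ± 0.566 TPM in LY against 3.54 ± 0.447 in DMSO, and its groups overlapped. It passed narrowly (log2 fold change 0.27 ± 0.11, limma adjusted p = 0.0451) and was lost under most alternatives, median-ratio scaling among them (limma adjusted p = 0.377). Of the 3 genes whose upstream sequences are 79.2% to 83.2% identical, ZNF91 thus rose clearly and ZNF93 narrowly. ZNF737 was lower, which its choice as a member fixed.

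ZNF350, known as a BRCA1-binding repressor (ZBRK1), held 12.2, 12.4, 13.98, 12.99 and 11.3 TPM in LY-1 to LY-5 and 4.23, 5.44, 5.58, 2.77 and 4.51 TPM in NC-1 to NC-5. It rose without overlap (log2 fold change 1.33 ± 0.15, limma adjusted p = 8.75e-06). ZNF568, a repressor of the imprinted Igf2 gene in mouse, went from 1.15 to 2.64 TPM (log2 fold change 0.73 ± 0.18). ZNF417 and ZNF587 are near relatives that silence the endogenous retrovirus HERV-K, and 31.5% of the 75-base words of ZNF417 and 15.3% of those of ZNF587 also occur in transcripts of other genes. ZNF587 held 14.9, 13.5, 18.9, 14.7 and 13.9 TPM in LY-1 to LY-5 and 3.32, 3.27, 13.4, 12.4 and 10.99 TPM in NC-1 to NC-5. NC-1 and NC-2 were far lower than the other 3 controls, all LY libraries lay above every control, if narrowly for NC-3, and the call (log2 fold change 0.93 ± 0.35, limma adjusted p = 0.0323) was lost without NC-2 (0.0641), NC-1 (0.077), LY-1 (0.0522), LY-3 (0.0741) or LY-4 (0.0524). ZNF417 did not pass (limma adjusted p = 0.0809), though it did without LY-5 (0.0286). ZNF331, an imprinted gene, measured 14.6 ± 1.72 TPM in LY against 15.95 ± 3.23 in DMSO (limma adjusted p = 0.527), and was called lower with upper-quartile scaling (log2 fold change -0.36, limma adjusted p = 0.0373). ZNF808, whose loss causes failure of pancreas development, held 2.95, 3.42, 5.24, 2.52 and 2.12 TPM in LY-1 to LY-5 and 2.24, 3.19, 5.96, 7.09 and 5.24 TPM in NC-1 to NC-5. Its groups overlapped and it did not pass (log2 fold change -0.40 ± 0.26, limma adjusted p = 0.193), but it did without NC-1 (-0.59, limma adjusted p = 0.0455) and with upper-quartile scaling (-0.61, limma adjusted p = 0.0481). ZNF382 was under the level limit, at 0.513 TPM in LY and 0.685 in DMSO, and was not tested.

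Along the chromosome the listed genes form 16 clusters when a distance of over 1 Mb between starts is taken as a break, and 14 of them hold tested members. Over all tested genes, 39.8% were higher and 24.9% lower. The cluster from ZNF175 to ZNF331 (51571298 to 53580269 on hg38) had 31 tested members. Of these, 22 were higher (71.0%) and 0 lower by limma at an adjusted p under 0.05, with a median log2 fold change of 0.71. At an unadjusted p under 0.05, and by limma without trend, 0 were lower too, but upper-quartile scaling gave 4 lower. The cluster holds ZNF616, ZNF610, ZNF347 and ZNF350, and 12 of the 34 increases of at least 2-fold on the log2(TPM + 1) scale. The cluster ZNF565 to ZNF573, around ZNF146 and ZNF585A, had 15 of 23 higher (65.2%) and 0 lower (median 0.65). There 0 were lower by limma at an unadjusted p under 0.05, without trend, and under each of the 6 scalings. The largest cluster, ZNF628 to ZNF446 at the far end of the long arm, had 31 of 52 higher (59.6%) and 1 lower (1.92%), with a median of 0.56.

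In ZNF575 to ZNF296 8 of 22 members were higher (36.4%) and 6 lower (27.3%), with a median of 0.20. These shares are near those of all tested genes, 39.8% and 24.9%. The 6 were ZNF575, which had to be lower, ZNF428, ZNF404, ZNF224, ZNF233 and ZNF180. In the same cluster ZNF296 was among the largest increases, and ZNF222 rose from 3.50 to 9.99 TPM beside ZNF223, which measured 2.44 TPM in LY against 2.64 in DMSO (limma adjusted p = 0.65; both chosen after their values were seen). Both overlap the unnamed gene ENSG00000267022, and ZNF223 has 61.5% of its 75-base words in other genes' transcripts, so its level is uncertain. In ZNF302 to ZNF792, with 5 tested members, ZNF30 fell and its neighbour ZNF792 had to be lower, while ZNF181 rose (log2 fold change 1.23 ± 0.15, limma adjusted p = 1.87e-05; chosen after its values were seen). ZNF101 to ZNF254, the home of ZNF91, ZNF93 and ZNF737, had 9 of 22 higher (40.9%, near the 39.8% of all tested genes). Its 2 lower members (9.09%) were ZNF737, which had to be lower, and ZNF66, and its median of 0.16 was close to that of all genes. The clusters ZNF653 to ZNF791 and ZNF557 to ZNF846 had 9 of 18 higher and 0 lower by limma (median 0.34; 0 at an unadjusted p under 0.05 and by limma without trend, up to 2 under other scalings), and 9 of 15 higher and 1 lower (median 0.44). The smaller groups held few members: 1 of 4 was higher in ZNF554 to ZNF77, both in ZNF574 to ZNF526 (median 0.84), and 0 of 3 in ZNF546 to ZNF780A (0 also at an unadjusted p under 0.05), where ZNF780A was lower by limma. The lone genes ZNF333, ZNF507 and ZNF473 rose, with log2 fold changes of 0.36, 0.60 and 0.61. ZNF333 and ZNF473 had overlapping groups (limma adjusted p = 0.0333 and 0.046), and neither was higher in all 6 scalings. ZNF507 was higher in all 6, and its groups did not overlap.

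**Figure D4:**
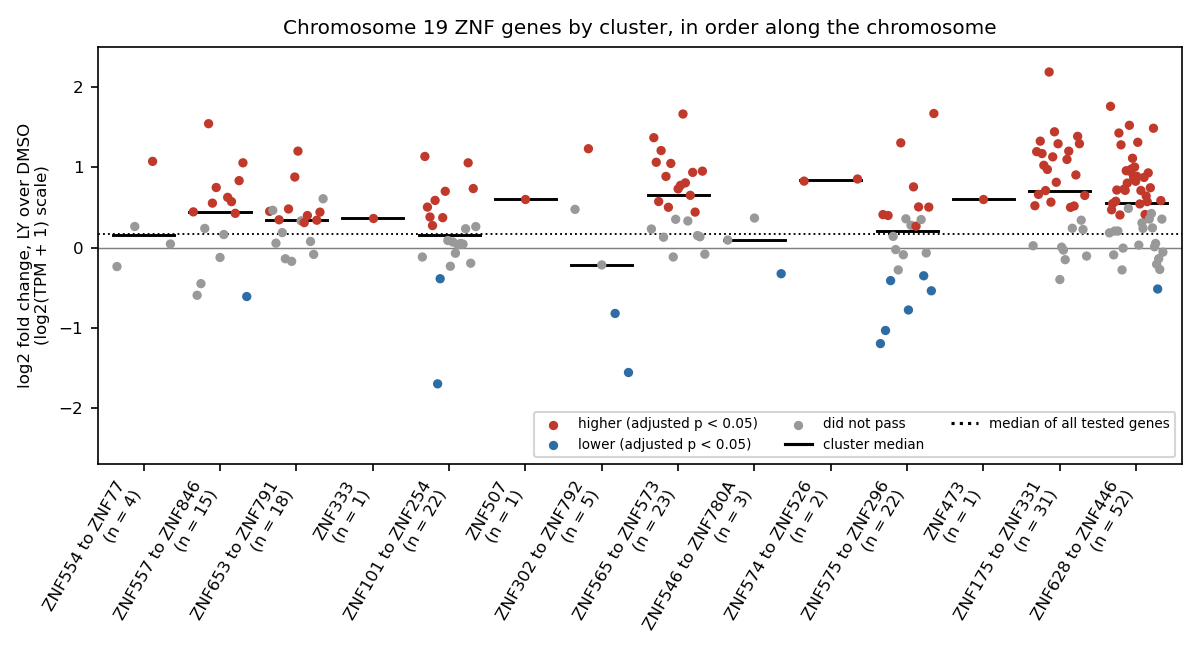
Log2 fold change of LY over DMSO (vertical axis) for each of the 200 chromosome 19 ZNF genes, grouped by cluster in order along the chromosome (horizontal axis, first and last listed gene and number tested), with cluster medians as bars and the median of all tested genes as a dotted line. With the values as deposited, ZNF565 to ZNF573, ZNF175 to ZNF331 and ZNF653 to ZNF791 are among the clusters with no called decrease. With upper-quartile scaling ZNF175 to ZNF331 has 4 and ZNF653 to ZNF791 has 2. ZNF575 to ZNF296 holds 6, among them ZNF575, which had to be lower because it passed the level limit through DMSO alone.

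Runs of neighbours that rose together were found in several clusters. The longest took in 14 consecutive tested members, from ZNF577 to ZNF528 (51804816 to 52418412), with log2 fold changes from 0.52 to 2.19. In order they were ZNF577, ZNF649, ZNF613, ZNF350, ZNF615, ZNF614, ZNF432, ZNF841, ZNF616, ZNF766, ZNF480, ZNF610, ZNF880 and ZNF528. ZNF616 was thus the peak of a stretch in which all tested neighbours rose with the values as deposited, and ZNF649, which overlaps ZNF577, went from 6.18 to 15.4 TPM. With upper-quartile scaling ZNF577, ZNF613 and ZNF766 did not pass, and ZNF766 did not with median-ratio scaling or with the mitochondrially encoded genes removed, so the run is shorter there. These runs were picked out after the values were seen. The next took in 9, from ZNF548 to ZNF416 (57389850 to 57578927), from 0.83 to 1.52, and it was made up of ZNF548, ZNF17, ZNF749, ZNF772, ZNF419, ZNF773, ZNF549, ZNF550 and ZNF416. All 9 were higher under each of the 6 scalings. No run of 3 or more neighbours fell. Over 186 pairs of neighbouring tested members of a cluster the fold changes had a Spearman rho of 0.22 (Pearson r 0.22), a description over pairs that share genes and libraries. Of the members, 87 overlap another listed gene, 18 have at least 20% of their 75-base words in transcripts of other genes, and 3 are read-through genes, so reads may be split among them in ways the sources used here do not state. Among the 113 members with neither overlap nor such sharing, 62 were higher (54.9%) and 10 lower (8.85%), with a median of 0.40.

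The machinery through which KRAB proteins act was mixed. Of 36 listed genes of TRIM28-dependent and related repression, all tested, 11 rose, 10 fell and 15 did not pass (30.6% and 27.8%, against 39.8% and 24.9% of all tested genes), with a median of -0.00025. TRIM28 held 416, 447, 407, 507 and 519 TPM in LY-1 to LY-5 and 522, 277, 442, 455 and 469 TPM in NC-1 to NC-5. The groups overlapped and NC-2 was the lowest library (log2 fold change 0.11 ± 0.16, limma adjusted p = 0.573), and the sign was negative without NC-2 (-0.045), with the mitochondrially encoded genes removed (-0.049) and with median-ratio, quantile and upper-quartile scaling (-0.062, -0.14 and -0.16). SETDB1 measured 30.04 ± 2.48 TPM in LY against 30.3 ± 3.64 in DMSO and did not pass either (limma adjusted p = 0.942), except with upper-quartile scaling (-0.27, limma adjusted p = 0.0235).

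Among the genes of the list that fell, EHMT2, the histone methyltransferase G9a, held 7.53, 11.2, 10.2, 10.6 and 12.96 TPM in LY-1 to LY-5 and 45.6, 32.4, 52.4, 52.8 and 50.5 TPM in NC-1 to NC-5. It had the largest change of the list, without overlap (log2 fold change -2.05 ± 0.16, limma adjusted p = 5.22e-07). UHRF1, which reads newly replicated methylated DNA for DNMT1, fell from 147 to 56.3 TPM, and HDAC1, a deacetylase of the NuRD complex, from 243 to 129 TPM. For both, NC-2 was the lowest control and still above every LY library. Among those that rose, GATAD2B, a NuRD subunit, went from 10.98 to 30.3 TPM and SUV39H2, a histone methyltransferase of heterochromatin, from 15.4 to 32.3 TPM, both without overlap. HDAC2, the close relative of HDAC1, rose from 39.5 to 79.4 TPM with groups that overlapped. Counts for the list moved with scaling: 6 rose and 17 fell with upper-quartile scaling, and 6 and 16 with quantile normalization.

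**Figure D5:**
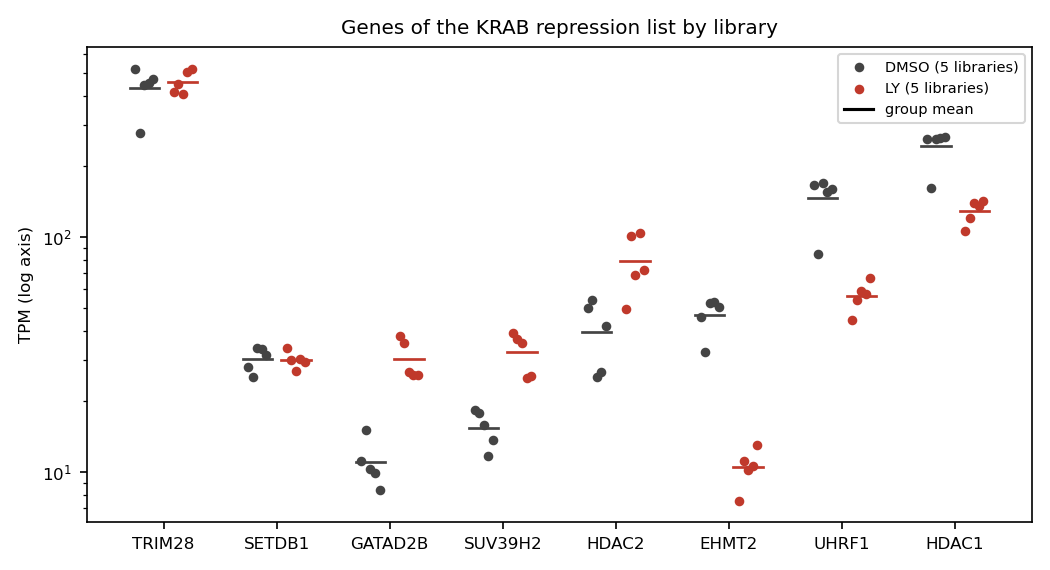
TPM (vertical log axis) of TRIM28, SETDB1 and the 6 called genes of the KRAB repression list with the largest changes, in each of 5 DMSO and 5 LY libraries, with group means as bars. TRIM28 and SETDB1 overlap between the groups, whereas EHMT2, UHRF1 and HDAC1 lie lower in LY, and HDAC2 is the gene with overlap among the 3 that rose.

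The label of the line was checked on marker genes. The epithelial keratins KRT8 (1069 to 1601 TPM) and KRT18 were high in all libraries. KRT18 was 941.3 to 1088 TPM in LY against 663.6 to 832.7 in DMSO, KRT19 was 15.8 to 24.7 TPM in LY against 122.9 to 166 in DMSO, EPCAM was at most 1.76 TPM, and KRT7 was at most 0.303 TPM. All 4 acinar and all 3 endocrine markers were at 0. PECAM1, CD3E, DCN and LUM were at 0 and PTPRC was at most 0.0214 TPM, while CD68, also known as a lysosomal gene, was 131 to 232 TPM in LY against 34.5 to 47.4 in DMSO. CDH5 was also higher in LY (2.68 to 3.22 against 0.0988 to 0.535 TPM) and COL1A1 lower (0.229 to 0.601 against 2.57 to 3.82 TPM). Whether these markers bear on the members' values was not tested.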

How the data were processed

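RNA sequencing of PANC-1 cells gave 10 libraries, 5 in the LY group and 5 in the DMSO group. The design text speaks of 4 samples per group, while the labels list 5, and all 10 were used. Control columns are named NC-1 to NC-5, so they were taken as the DMSO group with no tie to single samples. The authors deposited TPM per gene, normalised for length and library total, as the file's name and values show. Per the submitters' processing notes, the builds GRCm38, mm10 and hg38 were named without roles and the table's IDs are those of human Ensembl genes. For aligner, counter and annotation, the answer is: not given in the sources used here. Read totals cannot be had from TPM, so depth is unknown and no counting interval is given. For RNA extraction the design text names Trizol where the labels name an RNeasy kit, and libraries were made with a Hieff NGS MaxUp mRNA kit.

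Of 20263 listed genes, 20148 were named from the gene name table and 76 from GENCODE release 29, whose hg38 positions, types and transcript sequences were also used; 39 stayed unnamed. Of the 200 members, 179 matched a RefSeq promoter window by symbol. The KRAB and finger patterns were searched in the translated longest GENCODE coding sequence of each gene.

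With R 4.3.3 and limma 3.58.1, log2(TPM + 1) of the 11663 genes that reached 1 TPM in 5 or more libraries was fitted on the group, with a mean-variance trend and Benjamini-Hochberg adjustment over all of them, and genes were called at an adjusted p under 0.05. In simulated data of 11663 genes, 50 genes were planted at each fold. The fit recovered 8% of planted 1.25-fold, 52% of 1.5-fold, 80% of 2-fold and 96% of 4-fold changes, with 8 false calls. Far fewer genes changed there than the 64.6% called in the real data, and the adjusted p depends on that share. These rates therefore do not give the recovery in the real data. Members and lists were chosen with earlier results of these data known. Lists are described by counts and medians, with no set test. Named genes are the 10 with the largest increase and the 10 with the largest decrease among called members without overlap and with a mean of at least 2 TPM in the higher group, the 5 most abundant members and 12 genes fixed by name; from the KRAB repression list, TRIM28, SETDB1 and the 3 largest called changes each way. Alternatives tried were a pseudocount of 0.1 or 0.5, a limit of 5 TPM or none, 4 other scalings, limma without trend, each library left out in turn, NC-2 left out with median-ratio scaling, and 2 subsets of the members chosen after seeing the data.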

Additional observations from a re-analysis of the deposited data

Results flagged for a closer look

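Single libraries stood apart from the other 4 of their group, by Dixon's ratio above 0.71, in 7 of 90 groups examined, where chance gives about 1 in 20. NC-2, the control with 37.5% mitochondrial TPM, accounted for 5 of the 7. In NC-2, ZNF146 was at 66.3 TPM (other controls 54.4 to 57.2), ZNF787 at 43.4 (78.6 to 83.3), ZNF428 at 27.4 (63.7 to 70.0), UHRF1 at 84.4 (155.5 to 169.5) and HDAC1 at 161.3 (262.1 to 267.1). ZNF146 was thus high in the library in which the other 4 genes were low. In NC-4, ZNF66 was at 5.90 TPM (4.87 to 5.11 in the other controls), and in LY-3, ZNF587 was at 18.9 TPM (13.5 to 14.9 in the other LY libraries).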

How the results depend on the processing

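For the chromosome 19 ZNF genes, the count of members lower in LY (13) was 20 with median-ratio scaling, 28 with upper-quartile scaling, 20 with the mitochondrially encoded genes removed, 22 when NC-2 was left out under median-ratio scaling, and 3 with a limit of 5 TPM, where 121 members were tested. The 13 include ZNF737, ZNF792 and ZNF575, which had to be lower. The count higher (110) was 72 with upper-quartile scaling and 62 among the 113 members without overlap or shared sequence. Their median log2 fold change (0.43) was 0.34 without a filter, 0.60 with a limit of 5 TPM, and 0.29, 0.20, 0.31 and 0.30 with median-ratio scaling, upper-quartile scaling, removal of the mitochondrially encoded genes, and NC-2 left out with median-ratio scaling. It stayed above 0 in each of these. Leaving out single libraries gave 98 to 109 higher and 9 to 15 lower. ZNF genes elsewhere (22 lower) had 11 lower with a limit of 5 TPM and 41 with upper-quartile scaling. The KRAB repression list (11 higher, 10 lower) had 7 higher with median-ratio scaling, 6 higher and 16 lower after quantile normalization, 6 and 17 after upper-quartile scaling, and 6 higher with the mitochondrially encoded genes removed. The cause was not tested. Of 43 named genes followed under the alternatives, 11 crossed the threshold under at least 1, and no called one changed sign. Other genes named in the text are not among these 43. Of those others, ZNF497, ZNF180, ZNF233, ZNF333, ZNF473 and ZNF766, among others, did not keep their call in all 6 scalings. No paired analysis was possible because the control columns carry numbers that are tied to no sample. Depth is unknown, and most members lie at a few TPM.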
